A study of Eonycteris spelaea and Mus musculus with 51 samples.

Results

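The 297 genes described here are the mouse genes named Zfp with a number alone, the mouse nomenclature for zinc finger proteins. They were chosen by their measured lung level, as those of the 40840 genes in the mouse count table with 900 or more counts summed over the 9 lung libraries. Zfp36, whose product is an RNA-binding protein of another class, was left out. Another 73 numbered Zfp genes lay below the minimum, the nearest being Zfp72 with 889, Zfp94 with 872 and Zfp711 with 829 counts. Just inside stood Zfp688 with 903, Zfp979 with 911 and Zfp784 with 934. The rule used the summed lung level over all conditions, so lung levels are a description, while differences between conditions were not part of it.

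Most proteins of this kind carry arrays of C2H2 fingers, in which a zinc ion holds a short fold that reads a few bases of DNA. Many also carry a KRAB domain, which recruits the corepressor Trim28 and, through it, Setdb1 and heterochromatin proteins, and such proteins are known for silencing transposable elements and guarding imprinted loci. Their genes lie in clusters that arose by tandem duplication, and many of their mRNAs are known to be short-lived, so that their level follows transcription closely. The family is not uniform: some members, such as Zfp106 and Zfp598, act on RNA or at the ribosome rather than at chromatin.

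RNA was sequenced in bulk from lung, muscle and blood of mice, beside a bat species not treated here. Control mice were sampled before treatment, heat mice as soon as a heat shock of 1 h to the living animal had ended, and recovery mice 4 h after the end of such a shock. Lung and muscle had 3 libraries in each group and blood had 2 (the control ones numbered 1 and 3), which makes 24 mouse libraries. The labels used here give no strain, sex or age, name no other treatment, and do not say whether replicates or tissues came from separate mice, so p-values measure only the spread between these samples, which may be technical. No unheated mice were sampled at the later times, so handling and elapsed time cannot be told apart from heat.

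Total counts were 17.1 to 27.4 M in lung, 26.3 to 37.2 M in muscle and 32.5 to 54.5 M in blood. The members together took 0.866 to 0.975% of lung counts, 0.465 to 0.649% of muscle counts and 0.216 to 0.403% of blood counts. In lung the lowest count of any member in any library was 27, and the median member had 253 to 538 counts per library. Levels are CPM, counts scaled to the library's size and its TMM factor. The heat-inducible HSP70 genes Hspa1a and Hspa1b, summed, were at 21.9 to 61.1 CPM in lung control and 496 to 13900 CPM in lung heat libraries, and heat library 3, the shallowest, held the highest value. Defining markers of lung epithelium, muscle fibres and erythroid cells were high in their own tissues, which goes with the labels.

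Baseline levels of the members are given as a description, without those of all genes beside them. Per kilobase of exon, the median control level was 4.25 CPM in lung, 1.77 in muscle and 1.18 in blood, over 296 members with a known length. In lung this level ran from 0.784 in Zfp618 to 30.8 in Zfp869. In muscle Zfp106, an RNA-binding protein needed by motor neurons and muscle, stood at 107 CPM per kilobase, against 16.4 for the next member, Zfp651. In blood the highest was Zfp207, a microtubule-binding protein that helps load the checkpoint protein Bub3, at 12.4. No member was under 1 CPM in lung control, 6 were in muscle and 34 in blood. The filter on low counts was passed by 297, 296 and 280 members in lung, muscle and blood. Because the rule set a minimum of lung counts, the lung values were largely fixed by it. No difference in level between lung and the other tissues is read from them.

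The first question was whether these transcripts were lower right after heat. As a family they moved little in lung. The median log2 change from control to heat was -0.05 over the 297 members, beside -0.01 over all 19438 genes tested, and 170 members (57.2%) had a change below 0, beside 51.4% of all genes. The middle members lay between -0.27 and 0.15 (quartiles), and 1 member fell and 1 rose by more than 1 log2 unit. With the quasi-likelihood test of edgeR and Benjamini-Hochberg adjustment over all genes, 19 members fell (6.40%), where 2.72% of all genes fell. A further 9 members rose (3.03%), where 3.14% of all genes rose. Against the 13000 tested genes with the same minimum of summed lung counts the background was 3.28% fallen and 3.82% risen.

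**Figure D1:**
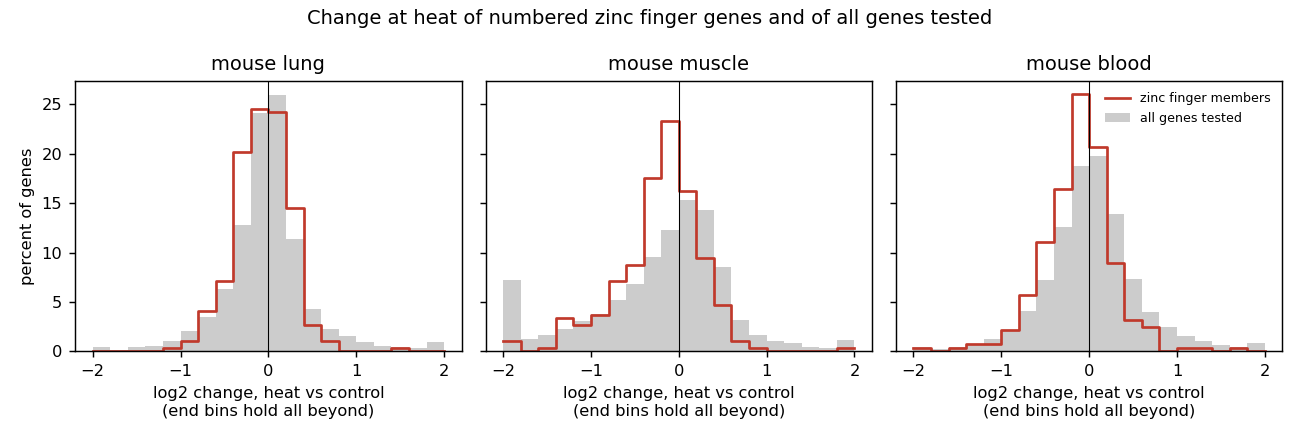
Share of genes (percent, vertical axis) by log2 change from control to heat (horizontal axis, bins of 0.2, end bins holding all values beyond) in lung, muscle and blood. The red line is the numbered zinc finger members and the grey bars are all genes tested; the member medians are -0.05, -0.15 and -0.10 and those of all genes -0.01, -0.05 and 0.02.

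How many lung members were called rested on single libraries. The number that fell became 3, 11 and 3 when control 1, 2 or 3 was left out, 5, 23 and 13 for heat 1, 2 or 3, and 12, 11 and 11 for recovery 1, 2 or 3, which enter only through the shared estimate of spread. The number that rose became 1, 2 and 1, then 1, 19 and 6, then 6, 5 and 5 in the same order. In these 9 fits 0.246 to 4.6% of all genes fell and 0.422 to 6.34% rose, and the share of members that fell was above that of all genes in each. The fits share most of their libraries and are not separate tests. The background with the same lung minimum was not made for them. DESeq2 called 28 fallen (4.55% of all genes) and 21 risen (6.47% of all genes). Scaling by library size alone gave 26 fallen and 6 risen, where 4.4% of all genes fell and 2.37% rose. Fallen members were 81.2% of called members there, 67.9% with TMM, 64% with RLE factors and 57.1% with DESeq2. In bulk tissue, less RNA of a gene per cell and fewer cells that express it cannot be told apart.

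Among the members that fell in lung, Zfp867, on chromosome 11, had the largest change. It stood at 11.4, 9.67 and 12.3 CPM in control, 5.56, 5.83 and 3.59 CPM at heat, and 10.9, 11.7 and 11.3 CPM at recovery. Every heat library lay below every control and every recovery library. The log2 change at heat was -1.14 (SE 0.18, adjusted p = 0.00765, edgeR with Benjamini-Hochberg adjustment, n = 3 each), and from heat to recovery it was 1.17 (SE 0.18, adjusted p = 0.00363).

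Zfp810, on chromosome 9, was at 23.0, 20.6 and 21.5 CPM in control, 14.0, 13.2 and 12.3 CPM at heat, and 24.1, 19.9 and 21.7 CPM at recovery. Its heat libraries were tight and stood apart from both other groups, with a log2 change of -0.72 (SE 0.11, adjusted p = 0.00657 by edgeR with Benjamini-Hochberg adjustment, n = 3). Zfp867 and Zfp810 kept their call at heat in all 17 alternative fits, each fit with 1 library left out included.

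Zfp39, also on chromosome 11, was at 14.7, 12.7 and 16.4 CPM in control, 8.59, 9.51 and 5.96 CPM at heat and 15.9, 14.5 and 15.3 CPM at recovery. The heat libraries again lay below all others, with log2 changes of -0.86 at heat (adjusted p = 0.0157) and 0.92 from heat to recovery (adjusted p = 0.00693) by edgeR with Benjamini-Hochberg adjustment (n = 3). Without control 1 or control 3 the adjusted p at heat was 0.0597 or 0.0841. Zfp28, on chromosome 7, was at 10.3, 12.2 and 9.76 CPM in control, 6.06, 6.71 and 4.74 CPM at heat and 9.30, 8.73 and 8.79 CPM at recovery. Its recovery libraries stood above heat and below control, and its change at heat was -0.87 (SE 0.16, adjusted p = 0.0130, edgeR with Benjamini-Hochberg adjustment, n = 3).

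**Figure D2:**
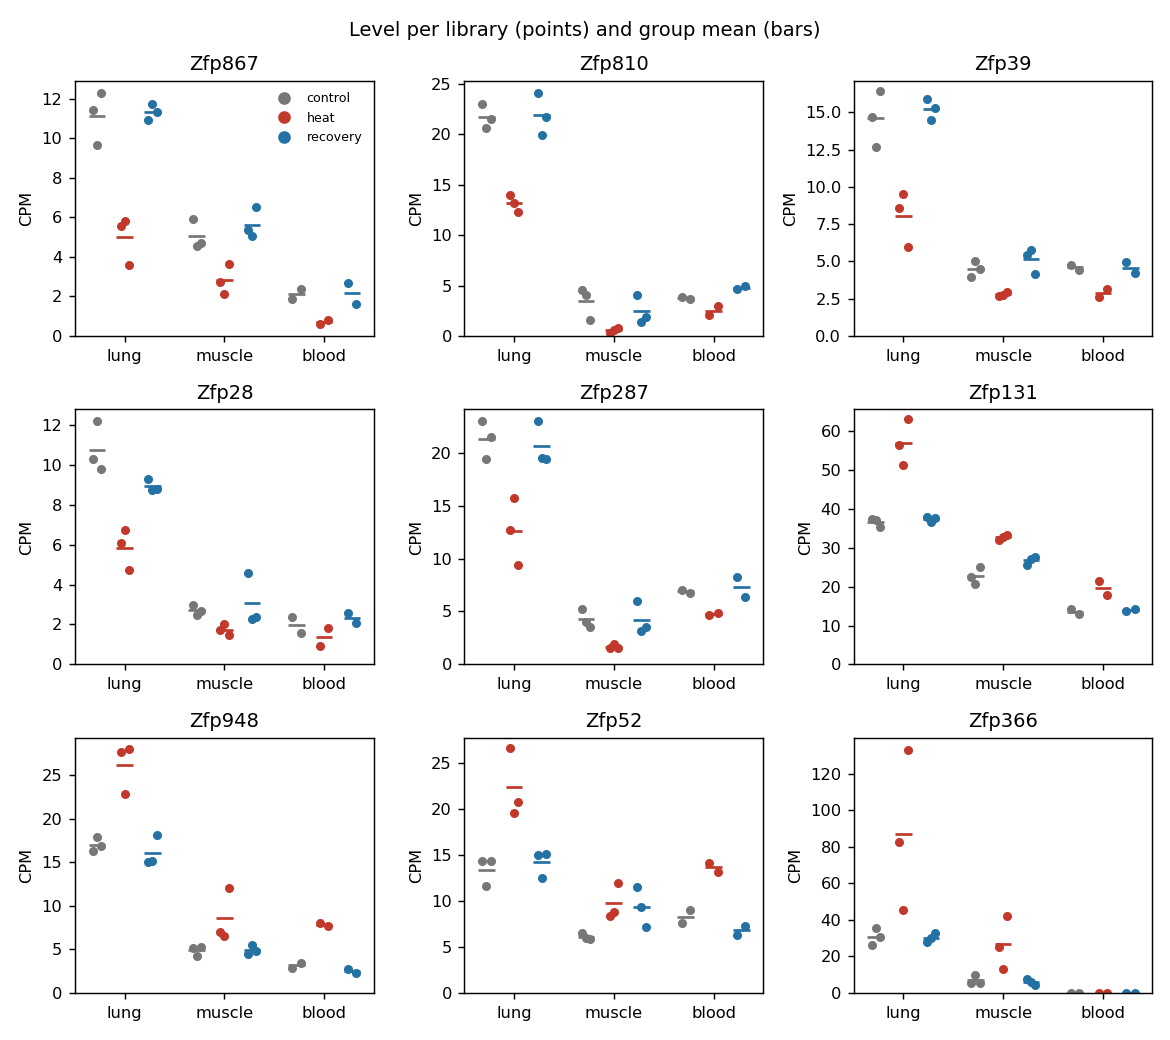
Level of 9 members (CPM, vertical axis from 0) in each library (points) with group means (bars), for lung, muscle and blood on the horizontal axis and for control (grey), heat (red) and recovery (blue). In lung the heat points of Zfp867, Zfp810, Zfp39, Zfp28 and Zfp287 lie below the other groups and those of Zfp131, Zfp948, Zfp52 and Zfp366 above; Zfp366 is near 0 in blood.

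The other fallen members had smaller changes. Zfp831, Zfp11 and Zfp287 changed by -0.85, -0.75 and -0.75, Zfp641 and Zfp414 by -0.63 each, and Zfp157 by -0.58. Outside these 10 largest falls, the changes ran from -0.57 for Zfp105 to -0.30 for Zfp318, with Zfp362, Zfp346, Zfp503, Zfp113, Zfp395, Zfp827 and Zfp606 between them. Zfp346 encodes a double-stranded RNA-binding protein. In none of the 19 did a heat library reach the range of the control libraries. They were called from these same values, so this is largely fixed by the call and nothing is read from it. Of all genes tested in lung, 14.2% had heat below control without overlap. Of the 10 largest falls, Zfp867, Zfp810 and Zfp28 kept their call with any 1 library left out, and the other 7 lost it without control 1 or without control 3.

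Markers of lymphocytes were lower in the same heat libraries. The summed level of 10 B cell markers was 228 to 253 CPM in control, 124 to 132 CPM at heat and 121 to 256 CPM at recovery, and 6 of the 10 fell at heat. For 14 T and NK cell markers it was 74.6 to 90.0 CPM in control, 52.8 to 57.9 CPM at heat and 56.1 to 68.9 CPM at recovery, and 3 of them fell. Neutrophil markers were at 52.1 to 78.1 CPM in control, 71.8 to 193 CPM at heat and 35.8 to 61.5 CPM at recovery; none of the 7 tested was called at heat, and 4 fell from heat to recovery. Endothelial markers were at 2340 to 2760 CPM in control, 2230 to 2450 CPM at heat and 2490 to 2600 CPM at recovery, with all 6 below 0 at heat, of which 1 fell. Zfp831, whose level in blood was 80.3 to 101 CPM over all groups but heat 2 (68.8 CPM), was at 24.4, 26.3 and 25.6 CPM in lung control, 15.7, 12 and 14.7 CPM at heat and 22.3, 17.6 and 13.6 CPM at recovery. Recovery and heat overlapped for this member, unlike for Zfp867 or Zfp810. Zfp318, which controls the switch to IgD in mature B cells, was at 75.5, 75.6 and 78.2 CPM in lung control, 61.6, 61.8 and 63.1 CPM at heat and 75.4, 68.4 and 67.6 CPM at recovery. Its change at heat was -0.30 (adjusted p = 0.0332, edgeR with Benjamini-Hochberg adjustment, n = 3), which was not called without control 1, 2 or 3, heat 1 or recovery 2 or 3 (adjusted p 0.0518 to 0.134). The part of cell makeup in these changes was not tested.

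Of the 9 members that rose in lung, Zfp131, a BTB-domain zinc finger protein on chromosome 13, was the steadiest. It stood at 37.5, 37.1 and 35.4 CPM in control, 56.6, 51.2 and 63.1 CPM at heat and 37.9, 36.7 and 37.6 CPM at recovery. All heat libraries stood well above the other 6, which lay within a few CPM of each other. The log2 change was 0.63 at heat (SE 0.09, adjusted p = 0.00485) and -0.61 from heat to recovery (SE 0.09, adjusted p = 0.00282) by edgeR with Benjamini-Hochberg adjustment (n = 3), and both held in all 17 alternative fits.

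Zfp366, also known as DC-SCRIPT and expressed in dendritic cells, had the largest rise and the widest spread. It was at 26.1, 35.7 and 30.5 CPM in control, 82.9, 45.5 and 133 CPM at heat and 27.9, 30.3 and 32.6 CPM at recovery. The groups did not overlap, but the heat libraries differed from each other by more than the controls did. The log2 change of 1.5 (SE 0.35) had an adjusted p of 0.0499 by edgeR with Benjamini-Hochberg adjustment (n = 3). It was 1.06 without heat 3 (adjusted p 0.0699), and leaving out any 1 library other than heat 2 ended the call.

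A run of 3 neighbouring members on chromosome 17 rose together in lung. Zfp53, Zfp52 and Zfp948 follow each other, with starts 46.5 kb before and 31.5 kb after that of Zfp52 in the GRCm38 annotation. Zfp52 was at 14.3, 11.6 and 14.3 CPM in lung control, 26.7, 19.6 and 20.8 CPM at heat and 15, 12.5 and 15.1 CPM at recovery. Zfp948 was at 16.3, 17.9 and 16.9 CPM in control, 27.7, 22.9 and 28.0 CPM at heat and 15, 15.2 and 18.1 CPM at recovery. For both, the heat group lay above the others and recovery overlapped control.

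Their log2 changes were 0.74 for Zfp52, 0.62 for Zfp948 and 0.56 for Zfp53 (adjusted p 0.0162, 0.0140 and 0.0252, edgeR with Benjamini-Hochberg adjustment, n = 3). Without control 1, control 3 or heat 1 none of the 3 was called (Zfp52 0.0546, 0.0642 and 0.0590; Zfp948 0.0629, 0.0693 and 0.0537; Zfp53 0.0940, 0.101 and 0.0773), nor were Zfp52 and Zfp53 without control 2 (0.0562 and 0.0659). The members on either side, Zfp51 at 0.05 and Zfp983 at -0.13, were not called. The run was picked out after its values were seen, and because tandem copies can share reads, the counts of each may hold reads of another.

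**Figure D3:**
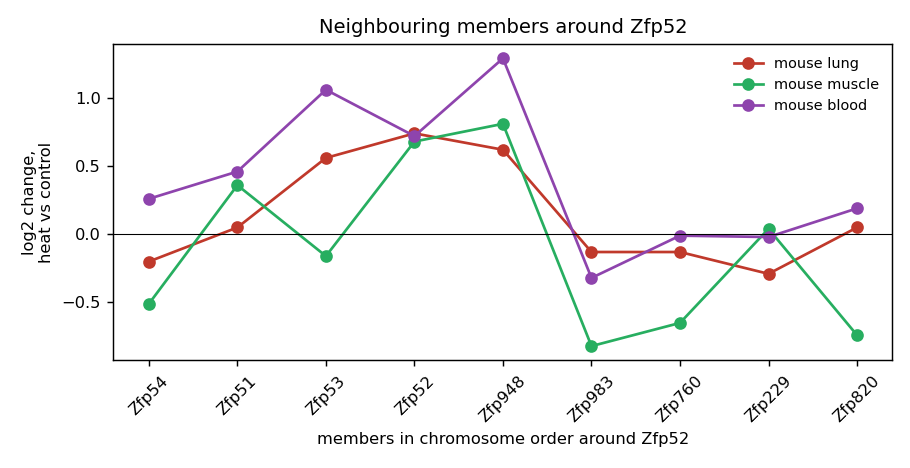
Log2 change from control to heat (vertical axis) of 9 members in chromosome order around Zfp52 (horizontal axis, not to scale), with lung in red, muscle in green and blood in purple. Zfp52 and Zfp948 are above 0 in each tissue, Zfp53 is at 0.56 in lung, 1.06 in blood and -0.16 in muscle, and Zfp983 is below 0 in each.

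The remaining risen members changed by 0.35 to 0.41. Zfp809, which recognises the primer binding site of integrated murine leukaemia viruses and silences them with Trim28, was at 29.4, 30.8 and 36.2 CPM in lung control, 44.6, 40.3 and 43.3 CPM at heat and 26.7, 27.2 and 28.5 CPM at recovery. Its log2 change was 0.41 at heat (adjusted p = 0.0310) and -0.64 from heat to recovery (adjusted p = 0.00327) by edgeR with Benjamini-Hochberg adjustment (n = 3). The first was lost in each fit with 1 library left out except those without heat 2 or heat 3 (adjusted p up to 0.125), and the second held in all. Zfp451, a SUMO ligase, changed by 0.35, Zfp646 by 0.37 and Zfp597 by 0.39.

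A panel of 35 members with known roles was described whatever its values, and at heat in lung 3 of them fell, 1 (Zfp809) rose and the log2 changes ran from -0.50 to 0.52. The fallen were Zfp503, a corepressor of development (-0.50, adjusted p = 0.0384), Zfp395 (-0.41, adjusted p = 0.0185) and Zfp318, by edgeR with Benjamini-Hochberg adjustment (n = 3). Zfp503 was called only with control 2 or heat 2 left out among the fits without 1 library (adjusted p 0.0641 to 0.161 without another), and Zfp395 lost its call without control 1, 2 or 3 or heat 1 (0.0554 to 0.0869). Zfp592, part of a chromatin complex with Zfp687, was at 77.4, 100 and 85.3 CPM in control against 113, 102 and 163 CPM at heat, which gave 0.52 without a call. Zfp568, which silences a placental Igf2 promoter, was at 32.5, 39.7 and 32.0 CPM in control against 45, 37 and 65 CPM at heat, so the groups overlapped.

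Many of the panel had values close to control in lung at heat. Zfp445, a guardian of imprints, was at -0.01, Zfp91, a ubiquitin ligase of the NF-kB pathway, at 0.01, and Zfp207 at 0.04. Zfp598, a ubiquitin ligase that senses collided ribosomes, was at 0.22, and Zfp622, a factor of ribosome assembly, at 0.21. For Zfp445 the 3 control and 3 heat libraries averaged 170 ± 0.747 and 169 ± 2.7 CPM (SD). Values this close to 0 have no firm direction: scaling by library size alone moved the median of all genes by -0.08, and Zfp91 and Zfp207 were then below 0.

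The next question was whether the changes returned after 4 h. In lung no member was called at recovery against control by edgeR, where 0.0103% of all genes fell and 0.0206% rose. At an unadjusted p under 0.05 there were 7 members lower and 1 higher (3.51% and 3.63% of all genes), and DESeq2 called 0 fallen and 1 risen (0.38% and 0.326% of all genes). The median member change was 0.01. For the 19 members that fell at heat, the recovery-to-control change had a median of 0.01 and ran from -0.51 (Zfp831) to 0.56 (Zfp503). For the 9 that rose it ran from -0.23 to 0.08. These comparisons share the control libraries with the heat comparison.

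Zfp503 had the smallest p of recovery against control in lung. It was at 60.4, 47.0 and 64.1 CPM in control, 35.7, 46.4 and 39.7 CPM at heat and 85.9, 81.3 and 85.3 CPM at recovery. Recovery libraries lay above all controls, and heat libraries below all controls. The recovery-to-control change was 0.56 (95% interval 0.29 to 0.82, adjusted p = 0.197, edgeR with Benjamini-Hochberg adjustment, n = 3), and Zfp462, a chromatin regulator of development, followed with -0.31 (95% interval -0.50 to -0.13, adjusted p = 0.383).

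From heat to recovery in lung, 25 members rose (8.42%), where 5.46% of all genes rose, and 15 fell (5.05%), where 5.84% of all genes fell, by edgeR with Benjamini-Hochberg adjustment. Of the 19 members that had fallen at heat 16 rose, and the 9 that had risen fell, beside 72.2% of the 528 genes that had fallen and 81% of the 610 that had risen. Both comparisons use the same heat libraries, so such opposite calls are largely fixed by the calls at heat and nothing is read from them. Zfp503 rose by 1.05 (SE 0.12, adjusted p = 0.000988), Zfp641 by 0.90 and Zfp11 by 0.85. Zfp386, not called at heat, rose by 0.80 (adjusted p = 0.0465), and lost that call without any 1 library other than heat 2 or heat 3 (adjusted p 0.0590 to 0.153).

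Among those that fell after heat were Zfp366 by 1.52, Zfp948 by 0.70 and Zfp52 by 0.66, and, without a call at heat, Zfp592 by 0.59, Zfp335 by 0.49, Zfp800 by 0.41 and Zfp236 by 0.39 on the log2 scale. Of these 4, Zfp335 was called in only 1 of the 9 fits without 1 library (that without heat 2; -0.28 without heat 3), Zfp592 was not called without control 3, heat 1 or any recovery library (-0.37 without heat 3), Zfp236 not without control 3, heat 1, heat 3 or any recovery library, and Zfp800 not without heat 1, recovery 1 or recovery 2. Leaving out 1 library gave 3 to 19 fallen and 9 to 29 risen members, with the fewest fallen without recovery 1 and the fewest risen without recovery 2. The fallen count was 10 without control 1, 8 without control 3, 4 without heat 1, 4 without recovery 2 and 6 without recovery 3. The risen count was 16 without heat 1, 11 without recovery 1 and 14 without recovery 3. In the fits without 1 library 1.67 to 8.3% of all genes fell and 1.48 to 6.5% rose.

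**Figure D4:**
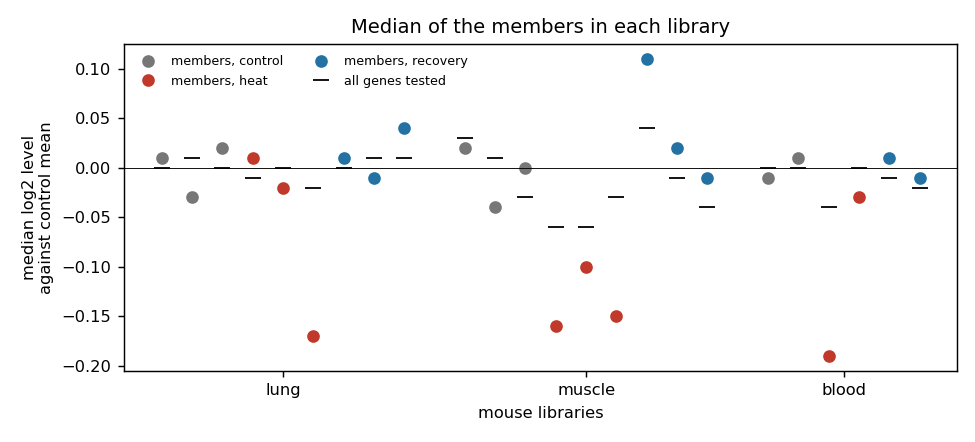
Median log2 level of the members against the control mean of their tissue (vertical axis) in each of the 24 libraries (horizontal axis), as points in grey for control, red for heat and blue for recovery, with dashes for all genes tested. The lowest point of each tissue is a heat library, at -0.17 in lung heat 3, -0.16 in muscle heat 1 and -0.19 in blood heat 1, while lung heat 1 stands at 0.01, among the controls.

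The family's shift in lung came mostly from heat 3. The median member level against the control mean was 0.01, -0.02 and -0.17 on the log2 scale in heat 1, 2 and 3, beside -0.01, 0.00 and -0.02 for all genes tested. In control it was 0.01, -0.03 and 0.02, so heat 1 and heat 2 overlapped control. With heat 3 left out the median log2 change was -0.02.

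Muscle showed a wider shift and almost no calls. The median log2 change from control to heat was -0.15 over 296 members, beside -0.05 over all 17746 genes tested, and 201 members (67.9%) were below 0, beside 53.1%. Library medians of the members were 0.02, -0.04 and 0.00 in control and -0.16, -0.10 and -0.15 at heat, without overlap. No member was called by edgeR, where 0.135% of all genes fell and 0.293% rose. At an unadjusted p under 0.05 there were 59 members lower (17.5% of all genes) and 23 higher (12.5% of all genes), and DESeq2 called 25 fallen and 8 risen (7.72% and 5.34% of all genes). Without recovery 1, 30 members fell and 8 rose (10.1% and 2.7% of members, beside 10.1% and 4.89% of all genes). Without control 3, 2 fell and 1 rose (1.53% and 0.508% of all genes), and without heat 2, 1 rose (0.529% of all genes).

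In muscle Zfp131 again had the smallest p, with 22.6, 20.7 and 25 CPM in control, 32.1, 32.7 and 33.4 CPM at heat and 25.7, 27.2 and 27.6 CPM at recovery. Heat lay above both other groups, and recovery above control, with a heat change of 0.52 (SE 0.10, adjusted p = 0.0587, edgeR with Benjamini-Hochberg adjustment, n = 3). It was called without control 3 (0.0451) or recovery 1 (0.0217). Zfp810 was at 4.54, 4.11 and 1.63 CPM in control, 0.329, 0.594 and 0.745 CPM at heat and 4.10, 1.39 and 1.88 CPM at recovery, a heat change of -2.62 (95% interval -3.88 to -1.35, adjusted p = 0.0696 by edgeR).

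Zfp287 was at 5.19, 4.02 and 3.54 CPM in muscle control, 1.51, 1.89 and 1.55 CPM at heat and 5.96, 3.17 and 3.49 CPM at recovery, a heat change of -1.36, as large as that of Zfp40 (-1.36) and near that of Zfp689 (-1.52). For each of them the heat libraries lay below control, as they did for 21.5% of all genes tested in muscle. These members were picked by their p, so nothing is read from it. Without recovery 1 all 4 of Zfp810, Zfp287, Zfp40 and Zfp689 were called (adjusted p 0.0198, 0.0189, 0.0200 and 0.0265), and Zfp810 also without control 3 (0.0451).

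The muscle libraries differed strongly in cells other than muscle fibres. Summed B cell markers were at 205, 151 and 53.0 CPM in control, 2.01, 15.7 and 17.1 CPM at heat and 357, 2.48 and 1.10 CPM at recovery. T and NK cell markers were at 79.7, 46.6 and 18.6 CPM in control, 0.197, 3.38 and 3.43 CPM at heat and 105, 0.968 and 1.46 CPM at recovery, and adipocyte markers at 305 to 1460, 51.7 to 344 and 285 to 1060 CPM. Zfp831 moved with the lymphocyte markers library by library: it was at 17.1, 13.1 and 5.45 CPM in control, 0.0329, 1.75 and 1.39 CPM at heat and 29.8, 0.271 and 0.179 CPM at recovery. At recovery Zfp810 and Zfp287 too were higher in recovery 1 than in the other recovery libraries, while for Zfp131 recovery 1 was the lowest of them. For Zfp39 recovery 1 was within 2 CPM of the other recovery libraries, a margin too wide at its low muscle level to tell the pattern. What part these cells have in the muscle values was not tested.

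At recovery against control in muscle no member was called by edgeR, where 0% of all genes fell and 0.0676% rose. At an unadjusted p under 0.05 there were 4 members lower and 16 higher (1.59% and 3.36% of all genes), DESeq2 called 0 and 1 (0.0468% and 0.478%), and the median change was 0.05. From heat to recovery the median was 0.21, beside 0.05 for all genes. Only Zfp143 rose, where 0.282% of all genes rose, and no member fell, where 0.186% fell. At an unadjusted p under 0.05 there were 13 members lower and 68 higher (6.34% and 13.3% of all genes), and DESeq2 called 2 fallen and 18 risen (2.26% and 3.96%).

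Zfp143, an activator at many promoters that include those of small nuclear RNA genes, was at 10.3, 8.49 and 10 CPM in muscle control, 7.96, 7.43 and 9.10 CPM at heat and 14.4, 15.8 and 15 CPM at recovery. Recovery lay above both other groups. Of all genes tested in muscle, 5.64% had recovery above control without overlap, as had 10.5% of members, and 15.4% of all genes had recovery above heat. Zfp143 was picked by its p, so nothing is read from it. The change from heat to recovery was 0.89 (SE 0.13, adjusted p = 0.0392) and that from control to recovery 0.65 (adjusted p = 0.254), by edgeR with Benjamini-Hochberg adjustment (n = 3). Leaving out any 1 muscle library ended the call (adjusted p 0.0546 to 0.191). In lung the gene had 19.8 to 25.3 CPM in control and 20.4 to 24.5 CPM at recovery, and in blood 8.68 to 8.72 and 8.34 to 9.59 CPM, which overlap.

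In blood, with 2 libraries a group, no member and no gene was called at heat against control by edgeR (background 0% in each direction). The median log2 change was -0.10 over 280 members, beside 0.02 over all 15869 genes, and 178 members (63.6%) were below 0, beside 47.9%. With an unadjusted p under 0.05, 44 members were lower (7.36% of all genes) and 13 higher (7.48% of all genes), and DESeq2 called 3 fallen and 4 risen (0.96% and 2.73% of all genes). Without heat 2, 8 members fell and 3 rose (1.47% and 2.99% of all genes); the library median of the members was -0.19 in heat 1 and -0.03 in heat 2. In these libraries neutrophil markers summed to 423 to 469 CPM in control and 745 to 912 CPM at heat, B cell markers to 709 to 910 and 558 to 567 CPM, and erythroid markers to 399000 to 571000 and 369000 to 903000 CPM. Their part in the values was not tested.

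Zfp948 had the smallest p in blood at heat. It was at 2.91 and 3.46 CPM in control, 8 and 7.65 CPM at heat and 2.69 and 2.25 CPM at recovery, with heat above both other groups. The heat change was 1.29 (95% interval 0.85 to 1.74, adjusted p = 0.0927, edgeR with Benjamini-Hochberg adjustment, n = 2), and it was called without heat 2 (adjusted p 0.0268). Zfp784, one of the weakest members, was at 1.25 and 1.35 CPM in control, 0.315 and 0.308 CPM at heat and 1.69 and 1.12 CPM at recovery, a change of -2.05 (adjusted p = 0.109 by edgeR). Zfp867, not among the smallest p, was at 1.85 and 2.35 CPM in control, 0.606 and 0.813 CPM at heat and 2.69 and 1.63 CPM at recovery.

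From heat to recovery in blood, 6 members fell (2.7% of all genes fell) and 4 rose (1.29% of all genes rose) by edgeR with Benjamini-Hochberg adjustment. Those that fell were Zfp651, Zfp948, Zfp53, Zfp467, Zfp52 and Zfp217, by 2.04, 1.66, 1.53, 1.12, 1.00 and 0.68 on the log2 scale, and all of the chromosome 17 run was among them. Zfp217 belongs to a CtBP and LSD1 corepressor complex. Those that rose were Zfp784, Zfp433, Zfp788 and Zfp865, by 2.17, 1.04, 0.92 and 0.64. None of the 10 was called without control 1, control 3, recovery 1 or recovery 2; without heat 1 there were 11 fallen and 8 risen (6.42% and 5.02% of all genes) and without heat 2 there were 7 and 15 (4.92% and 2.85%). At recovery against control none was called by edgeR (background 0% in each direction), and the median was -0.01. With an unadjusted p under 0.05, 4 members were lower and 2 higher (4.06% and 4.87% of all genes), and DESeq2 called none (0.26% fallen and 0.306% risen of all genes).

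Members called in lung had mostly the same direction in the other tissues, as did all genes called in lung, so this is not particular to them. The libraries of the tissues are separate, but the labels do not say whether the mice are. Of the 19 that fell in lung, 17 were below 0 in muscle and 16 of the 17 tested were below 0 in blood, beside 87.0% and 85.8% of all genes that fell in lung. Of the 9 that rose, 6 were above 0 in muscle and 8 of 8 in blood, beside 80.2% and 90.8% of all genes that rose. The exceptions among the fallen were Zfp641 and, at 0.00, Zfp346 in muscle and Zfp503 in blood, where Zfp503 was under 0.5 CPM in every library. Those among the risen were Zfp53, Zfp809 and Zfp646 in muscle.

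**Figure D5:**
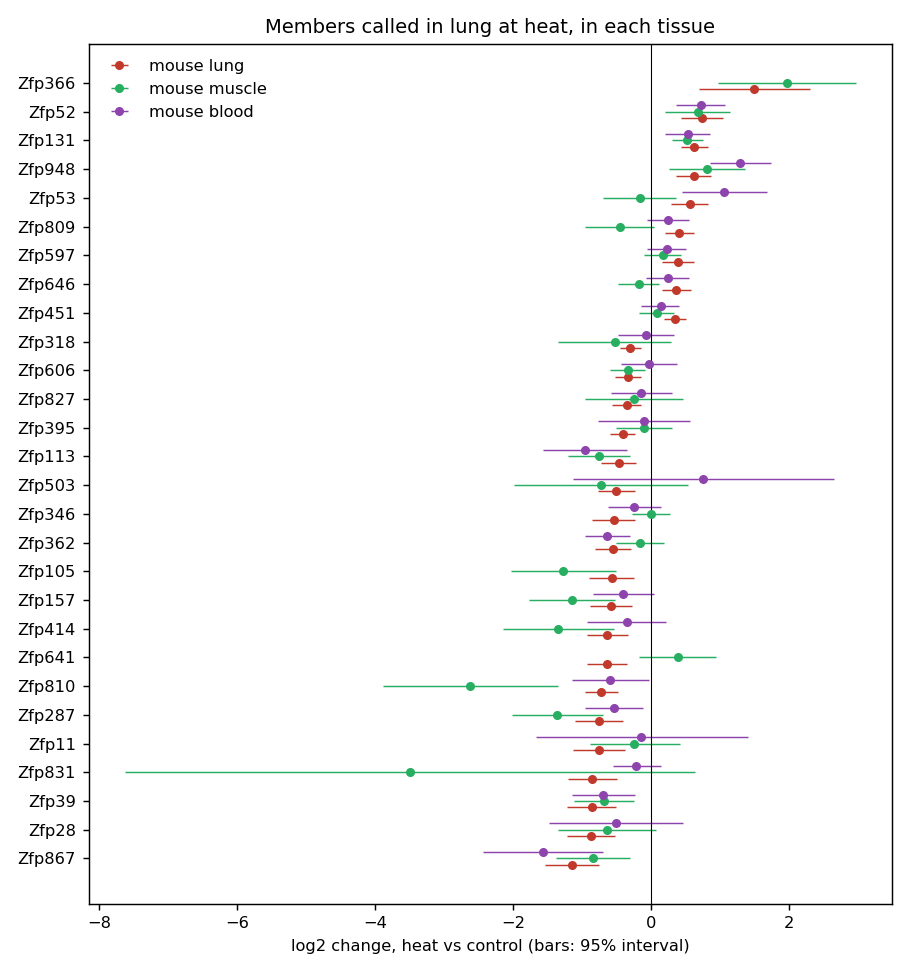
Log2 change from control to heat (horizontal axis, bars are 95% intervals) of the 28 members called in lung (vertical axis, ordered by the lung change), in lung (red), muscle (green) and blood (purple). Zfp867, Zfp39, Zfp287 and Zfp810 lie below 0 and Zfp52, Zfp131 and Zfp948 above 0 in each tissue; the interval of Zfp831 in muscle is the widest drawn.

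Over the 280 members tested in each tissue, 106 (37.9%) were lower at heat in all 3 tissues and 40 (14.3%) higher in all 3, beside 21.2% and 21.1% of the 13976 genes tested in each. For 22 members (7.86%) the heat libraries lay below the control libraries without overlap in each tissue, beside 4.07% of all genes. These 22 included Zfp867, Zfp39, Zfp287, Zfp810, Zfp414, Zfp157, Zfp113, Zfp831, Zfp386, Zfp433 and Zfp784. For 7 members (2.50%, beside 2.87% of all genes) heat lay above control in each tissue: Zfp131, Zfp142, Zfp52, Zfp592, Zfp609, Zfp758 and Zfp948. Across members, the heat changes of lung and muscle correlated with Pearson's r = 0.52 (296 members) and those of lung and blood with 0.57 (280 members), beside 0.46 and 0.47 over all genes. For muscle and blood r was 0.30, beside 0.21; members share libraries and are not replicates.

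The difference in heat change between tissues was then tested as an interaction in joint edgeR fits. No member was called for lung minus muscle (0.0328% of 21337 genes called) or lung minus blood (0.0615% of 21149). The median difference of members was 0.10 for lung minus muscle, beside 0.10 over all genes. For lung minus blood it was 0.11, beside 0.00. At an unadjusted p under 0.05 there were 46 members (15.5%, beside 19.9% of all genes) and 37 members (12.5%, beside 9.1%). DESeq2 called 7 and 2 of the 297 members, among 565 and 235 genes (1.73% and 0.74% of all genes). The lowest adjusted p of a member was 0.110 in the first and 0.0918 in the second, the latter for Zfp251 with a difference of 0.81 (SE 0.17). For Zfp810, at -0.72 in lung and further below 0 in muscle (-2.62), lung minus muscle was 1.89 (SE 0.53, adjusted p = 0.126 by edgeR). Without muscle control 3 there were 9 members called for lung minus muscle (4.48% of all genes), and without muscle heat 3 there were 2 (1.3%).

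The members share features that the rule did not name, taken from the GENCODE M21 annotation of GRCm38. In it 296 of 297 symbols matched and 293 had a coding transcript. A minimum of raw counts favours long transcripts, and the genes set beside the members were not held to it. The part of the rule in these features was not tested. The members' median GC content was 47.5% in the coding sequence, beside 53.1% over the genes tested in lung. They had a median of 5 exons, beside 9, a 3′ untranslated region of 1200 bases, beside 911, and 1.78 ATTTA pentamers per kilobase of that region, beside 1.15. Chromosome 7 held 68 of them and chromosome 17 held 39, and 193 had another member starting within 500 kb.

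Within the family, the 98 members with the lowest coding GC content (at most 42.9%) had a median log2 change of -0.18 at heat in lung, with 73 below 0. The 97 between had a median of -0.03, and the 98 with the highest (over 52.1%) had a median of 0.04, with 40 below 0. Over all genes within the same GC bounds the medians were -0.07, -0.01 and 0.02. Members that fell were 2, 9 and 8 in the low, middle and high groups (1.53%, 2.28% and 2.87% of all genes within the bounds), and 3, 4 and 2 rose (3.3%, 3.33% and 3.12%). In muscle the medians of the low and high groups were -0.23 and -0.11, and in blood -0.12 and -0.08. Spearman's rho between coding GC content and the lung change was 0.27 over 293 members, beside 0.10 over 14871 genes, and it was 0.12 in muscle (-0.02 over all genes) and 0.05 in blood (0.05); the points share the same libraries. Members with a near neighbour had a lung median of -0.08 (7 fell and 6 rose of 193) and those without one -0.02 (12 fell and 3 rose of 103). Of all genes tested in lung 2.72% fell and 3.14% rose, and the difference between these groups was not tested.

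Other genes of the pathway were described from lists, to be read against the 2.72% of all genes that fell and 3.14% that rose at heat in lung. None of 28 genes of the KRAB corepressor machinery, Trim28 and Setdb1 among them, fell or rose at heat in lung, muscle or blood, with medians of 0.00, -0.02 and 0.01. At those shares, and with 0.135% and 0.293% of all genes called in muscle and none in blood, few or no calls among 28 genes are the background, and nothing is read from the 0. From heat to recovery in lung, where 5.46% of all genes rose, Chd4, the helicase of the NuRD complex, rose by 0.38 (adjusted p = 0.0123, edgeR with Benjamini-Hochberg adjustment). Of 35 numbered Zbtb genes 1 fell and 2 rose at heat in lung (medians 0.08 in lung, 0.02 in muscle and 0.06 in blood). Of 20 Zscan and Zkscan genes tested in lung 1 fell and 1 rose (medians -0.09, -0.22 and -0.25). The members' medians were -0.05, -0.15 and -0.10, so a median below 0 in each tissue is not particular to them. Of 48 numbered Zfp genes below the count minimum that were tested in lung, 1 fell and none rose there. Medians of those below the minimum were -0.24 in lung, -0.02 in muscle and -0.39 in blood.

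A list of 40 other short-lived transcripts, mostly immediate early genes, moved in both directions in lung at heat: 4 fell and 5 rose, with a median of 0.31. The fallen were Plk2 (-1.33), Klf10 (-0.84), Id2 (-0.77) and Ier3 (-0.56), and the risen Cdkn1a (1.70), Dusp1 (1.23), Nfkbia (0.88), Mcl1 (0.80) and Klf6 (0.74). Its medians were 0.11 in muscle and 0.63 in blood, where those of the zinc finger members were -0.15 and -0.10. In blood 14 of the 40 fell from heat to recovery and none rose (2.7% and 1.29% of all genes), with a median of -1.08, while the members' median was 0.11. These blood calls depend on the fit. With a replicate block 0% of all genes fell or rose in this comparison, and with only its 2 groups fitted 0.0998% fell and 0% rose.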

How the data were processed

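The authors deposited raw read counts per gene for 24 mouse libraries. STAR 2.7, GRCm39 and featureCounts are named in the submitters' processing notes. For featureCounts the version, annotation, strand setting and treatment of multiply mapped reads are not given in the sources used here, so reads of antisense genes and of near-identical copies may be shared. Per the labels' protocols, TRIzol total RNA was used with a NEBNext Ultra Directional kit.

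Each tissue was fitted over all its libraries with edgeR 4.0.16 (limma 3.58.1, R 4.3.3): filterByExpr (minimum count 10, minimum total 15), TMM, robust quasi-likelihood test, Benjamini-Hochberg adjustment over all genes tested, called under 0.05. Only called genes are said to have risen or fallen. Recovery libraries enter the spread of the heat comparison. Alternatives were DESeq2 1.42.0, other scalings and filters, a fit of the 2 groups compared, a block and leaving out each library. The procedure was tested on simulated counts.

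The members, lists and tests were chosen with earlier results of these data known. Named genes are, per comparison, up to 10 called members with the largest fall and 6 with the largest rise, the 5 smallest p where fewer than 3 were called, and the panel of known roles; other members named were chosen after their values were seen, as was the background of genes with the same lung minimum. With no sequence tables of GRCm39, sequences and coordinates are not shown and KRAB or finger groups were not formed.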

Additional observations from a re-analysis of the deposited data

How the results depend on the processing

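Leaving out 1 library gave median log2 changes of members at heat of -0.11 to -0.02 in lung, -0.16 to -0.12 in muscle and -0.20 to -0.03 in blood. At recovery against control they were -0.01 to 0.02, 0.01 to 0.09 and -0.02 to 0.02, and from heat to recovery 0.00 to 0.10, 0.15 to 0.22 and 0.03 to 0.20. Counts of fallen and risen members at heat ran from 3 to 23 and 1 to 19 in lung, 0 to 30 and 0 to 8 in muscle, and 0 to 8 and 0 to 3 in blood. From heat to recovery they ran from 3 to 19 and 9 to 29 in lung, 0 to 1 and 0 to 0 in muscle, and 0 to 11 and 0 to 15 in blood. At recovery against control they stayed at 0 in each tissue. For lung minus muscle the median difference of members was 0.06 to 0.15 with 0 to 9 members called (0 to 4.48% of all genes). For lung minus blood it was 0.04 to 0.20 with 0 called (0.00901 to 1.86% of all genes). With all libraries the median over all genes was 0.10 and 0.00.

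DESeq2 called 21 risen in lung at heat, 25 fallen and 8 risen in muscle and 3 and 4 in blood. It called 1 risen at recovery against control in lung and 1 in muscle. From heat to recovery it called 2 fallen and 18 risen in muscle (median 0.16) and 10 risen in blood (2.97% of all genes). Its interactions gave 7 members for lung minus muscle (median -0.03, also -0.03 with RLE factors, against 0.10) and 2 for lung minus blood. Of all genes 1.73% and 0.74% were called there. With only control and heat libraries 1 member was called for lung minus muscle (1.26% of all genes).

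Scaling by library size alone moved the medians of all genes by up to 0.62 in blood, 0.38 in muscle and 0.08 in lung, and those of members to -0.13, -0.53 and -0.27 at heat in lung, muscle and blood. At recovery against control they became -0.10 in muscle and -0.63 in blood, and from heat to recovery 0.15, 0.44 and -0.35. It left 0 risen from heat to recovery in muscle and 0 in blood (0.062% and 0.0504% of all genes). Under it Zfp91 (-0.07), Zfp148 (-0.01), Zfp207 (-0.05), Zfp263 (-0.03), Zfp326 (-0.06), Zfp644 (-0.07), Zfp652 (-0.04) and Zfp704 (-0.05) in lung at heat, and Zfp318 (-0.11) and Zfp664 (-0.06) in blood at recovery against control, turned sign. Zfp110 stood at 0.01 and Zfp445 at 0.00 with DESeq2, RLE factors or no filter.

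Fitting only the 2 groups compared gave 4 fallen and 2 risen in lung at heat (0.777% and 0.985% of all genes). From heat to recovery in lung it gave 6 and 14 (3.51% and 2.97%). In muscle at heat it gave 13 and 1 (4.39% and 0.338% of members, beside 4.77% and 1.97% of all genes). There were 0 risen from heat to recovery in muscle (0.0242% of all genes), and 0 and 0 in blood. Without the low-count filter there were 2 fallen in muscle at heat (0.374% of all genes) and 2 risen at recovery against heat (0.337%). In blood there were then 5 fallen and 3 risen at heat (0.496% and 1.08%) and 14 risen from heat to recovery (2.02%). The cause of these moves was not tested.

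Same-numbered libraries deviated together with correlations of -0.16 to 0.13 in lung and -0.41 to 0.55 in muscle. In blood it was 0.61 for the 1 number that heat and control share and -0.06 to -0.02 for the others. The numbers were therefore not taken to pair the samples, though blood has too few shared numbers to tell. A replicate block gave 10 fallen and 5 risen in lung at heat (1.53% and 1.99% of all genes). From heat to recovery it gave 6 fallen in lung (3.76%), 0 risen in muscle (0.0282%) and 0 fallen and 0 risen in blood (0% each). It also gave 0.00 for Zfp110. Without 1 library, signs also turned for Zfp91 (-0.05 to 0.08), Zfp110 (-0.03 to 0.03), Zfp207 (-0.02 to 0.09), Zfp24 (-0.13 to 0.06), Zfp326 (-0.06 to 0.09), Zfp367 (-0.12 to 0.13), Zfp423 (-0.17 to 0.06), Zfp445 (-0.02 to 0.01) and Zfp644 (-0.05 to 0.06) in lung at heat. Depth limits members near the minimum and those under 1 CPM in blood, and 2 libraries a group limit blood.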
